A study of Mus musculus with 4 samples.

Results

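The Sfmbt2 miRNAs are small RNAs cut from hairpins that lie head to tail in an intron of Sfmbt2, a gene for a Polycomb-related protein. They were represented here by every mouse entry of the array named miR-297, miR-466, miR-467 or miR-669, whatever its letter, strand suffix or star. These were 39 of the 611 mouse entries: 3 of miR-297, 14 of miR-466, 10 of miR-467 and 12 of miR-669. All 39 were read on 4 one-colour Agilent arrays of neural stem and progenitor cells, made from mouse embryonic stem cells (ESCs) and cultured as floating neurospheres. The groups were primary neurospheres (passage 0, day 6 of culture) and secondary neurospheres (passage 1, day 12), each with 1 array titled control and 1 titled NFIA OE, for overexpression of the transcription factor NFIA. In each passage the NFIA-overexpressing and the control cells had grown together in mixed spheres and were sorted apart by fluorescence, so the arrays of a passage share a culture. The labels name no promoter for NFIA and no clone number, and no group had a replicate array.

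Titles and source names disagree on which cells overexpressed NFIA, because the array titled control has a source name that places its cells in the overexpressing line, and the array titled NFIA OE one that calls them wild type. Groups follow the titles here, and every signed title difference turns its sign if the source names are right. The passage comparison does not depend on this.

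A miRNA gene is transcribed as a hairpin whose 2 arms can each yield a mature strand, and the strand kept in the Argonaute protein recognises target mRNAs mainly through its seed, bases 2 to 8. Sfmbt2 is an imprinted gene read from the paternal copy, and its intronic cluster is known from mouse ESCs and the placenta. The cluster grew by repeated duplication of a short unit rich in UG and CA repeats, so its members are many, alike in sequence and hard to tell apart on an array.

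The label was checked against the mouse gene table of the GRCm38.p6 assembly. It listed 81 loci of the 4 numbers, of which 71 lay within the bounds of Sfmbt2 on chromosome 2 and 10 elsewhere. Of the 39 array entries, 31 had all loci of their own name inside Sfmbt2. For 3 entries such loci lay both inside and elsewhere (miR-297a*, miR-466f-3p and miR-466f-5p). The other 5 had none there: miR-466i lay in Cdk13 on chromosome 13, miR-466j in no gene on chromosome 10, miR-466k in the RNA gene Gm31419 on chromosome 3, miR-467f in Fxr2 on chromosome 11 and miR-467g in Grk4 on chromosome 5. The set is therefore called the 39 entries below, and the 5 are named where it matters. In the array's own annotation, 6 entries read several names and the 39 together read 50. The miR-466a-3p probes also read miR-466b-3-3p, miR-466b-3p, miR-466c-3p and miR-466e-3p. The miR-466a-5p probes also read miR-466e-5p, the miR-467a* probes miR-467d*, and the miR-297a* probes miR-297b-3p and miR-297c*. The miR-669b probes also read miR-297a and miR-466f, and the miR-669d probe also reads miR-467h. Over all names read, 7 of 9 loci of miR-669b and 2 of 3 of miR-669d lay inside Sfmbt2. A value of an entry that reads several names cannot be assigned to 1 miRNA.

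Mature sequences from RefSeq (GRCm38.p6) matched 4 of the 39 entries by exact name, and miR-466i matched the RefSeq name miR-466i-3p. They are shown because these 5 are the entries outside Sfmbt2, and because their repeats show what the probes have to distinguish. Capitals mark the seed, 5′ to 3′.
miR-467f: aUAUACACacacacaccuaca
miR-466i-3p: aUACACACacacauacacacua
miR-467g: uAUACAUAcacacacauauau
miR-466j: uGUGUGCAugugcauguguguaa
miR-466k: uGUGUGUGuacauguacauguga
miR-467h: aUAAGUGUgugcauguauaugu
The first lies at chr11:69635419-69635439 on the minus strand, the second at chr13:17747552-17747573 on the plus strand and the third at chr5:34732872-34732892 on the minus strand. miR-466j lies at chr10:60960802-60960824, miR-466k at chr3:85467396-85467418 and miR-467h, the second name read by the miR-669d probe, at chr9:115381898-115381919, all on the plus strand. miR-467f and miR-466i-3p share a run of 13 bases, AUACACACACACA, and miR-467g shares 11 bases with each of them. No pair among the 6 has the same seed. The first 3 are built on ACA repeats, with A and C making up 71.4% to 86.4% of their bases, and the last 3 on UGU repeats, with U and G making up 68.2% to 73.9%.

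Detection on an array asked that 50% or more of a probe's spots be well above background, and an entry needed 1 such probe. Median negative-control signals were 2.92 to 3.72 intensity units. The dimmest array was the primary one titled control, whose probes detected on every array had a 75th percentile of 167 units. The other 75th percentiles were 261 on the primary array titled NFIA OE, 443 on the secondary array titled control and 369 on the secondary array titled NFIA OE. Of the neural markers, 6 or 7 of 7 were detected on each array, of the blood markers 0 of 6, and of the pluripotent markers 10 and 11 of 13 on the primary arrays against 1 and 7 on the secondary arrays titled control and NFIA OE.

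Most of the 39 entries were not detected. Of the 39, 25 were above background on no array (64.1%, against 58.8% of all 611 mouse miRNAs), 7 on all 4 arrays (17.9%, against 25.5% of the 572 other mouse miRNAs), 2 on 3, 2 on 2 and 3 on 1. The number detected was 7 on the primary array titled control, 9 on the primary array titled NFIA OE, 14 on the secondary array titled control and 11 on the secondary array titled NFIA OE. Over all 611 mouse miRNAs the numbers were 186, 220, 209 and 207 in that array order (30.4%, 36.0%, 34.2% and 33.9%). The fewest were detected on the primary array titled control in both counts, but the most of all miRNAs on the primary array titled NFIA OE and the most of the 39 entries on the secondary array titled control. The part of array brightness in this was not tested. With the scanner software's own gene flag the counts were 10, 16, 18 and 17 in the same array order, and with all spots of a probe required they were 4, 7, 9 and 8. The 25 undetected entries had probe means of -6.99 to 21.1 intensity units (median 0.597), which does not show that their miRNAs were absent.

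**Figure D1:**
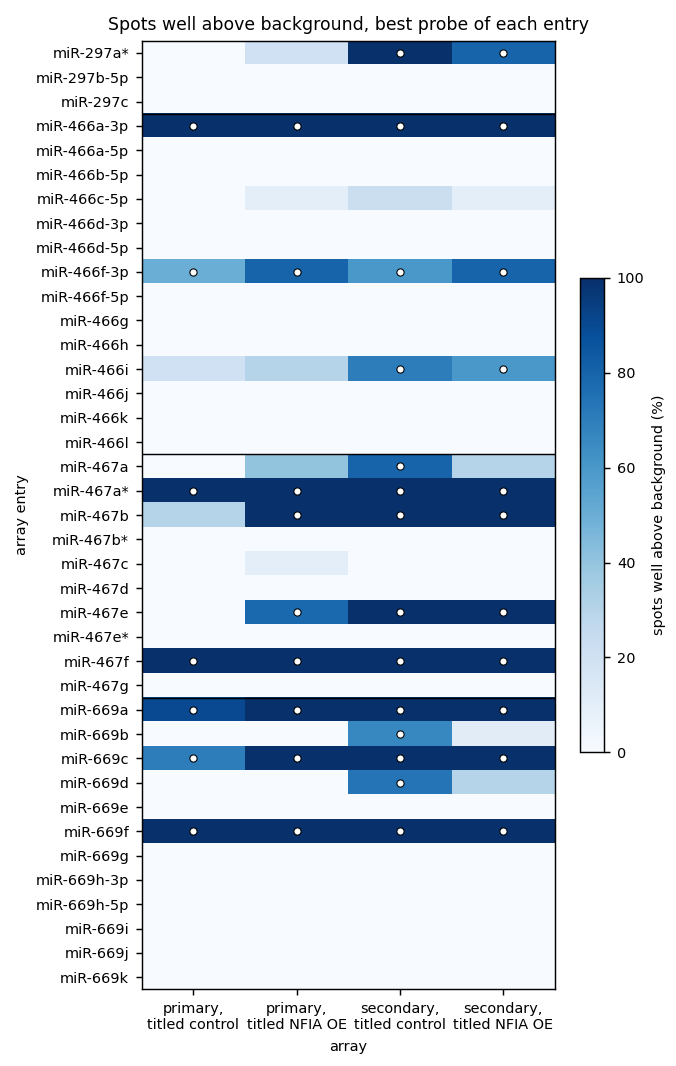
Share of spots well above background (percent, colour scale) for the best probe of each of the 39 entries (rows, by miRNA number) on the 4 arrays (columns). White dots mark arrays where an entry counted as detected, which was on all 4 arrays for 7 entries and on none for 25.

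By number, 1 of 3 entries of miR-297 was detected on any array, 3 of 14 of miR-466, 5 of 10 of miR-467 and 5 of 12 of miR-669. The miR-297 entry was miR-297a*, seen on both secondary arrays and neither primary array. For miR-466 the count was 2 on each primary array and 3 on each secondary array, the third being miR-466i. For miR-467 it was 2, 4, 5 and 4 in the array order primary titled control, primary titled NFIA OE, secondary titled control, secondary titled NFIA OE. For miR-669 it was 3, 3, 5 and 3 in that order. Entries with a locus in Sfmbt2 were detected in 12 of 34 cases, and those with loci only elsewhere in 2 of 5 (miR-467f on all 4 arrays and miR-466i on the secondary arrays).

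By strand, none of the 7 entries named -5p was detected on any array, against 2 of 4 named -3p. Of the 4 starred entries, a star marking the strand once taken as the minor product, 2 were detected, as were 10 of the 24 with no suffix. Names with a star or no suffix do not give the arm, so these counts do not compare the arms over all entries. Of the 572 other mouse miRNAs, 41.6% were detected on at least 1 array. Both strands of a hairpin had entries in 7 cases. For miR-466a and miR-466f the -3p strand was detected on all 4 arrays and the -5p strand on none. miR-467a* was detected on all 4 arrays, while its partner miR-467a passed on the secondary array titled control alone. The reverse held for miR-467b and miR-467e, detected on 3 arrays each while miR-467b* and miR-467e* were detected on none. Neither strand of miR-466d or miR-669h was detected. For 2 hairpins the partner entries read unlike sets of miRNAs. The miR-466a-3p probes read 5 names against 2 for miR-466a-5p, and the miR-467a* probes read 2 against 1 for miR-467a. Probes also differ in affinity, so the comparison of strands is one of detection and not of amount.

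Levels are given as a percentage of each array's 75th percentile. With this scaling they can be compared between arrays for 1 entry, but not between entries. Under other scalings the order of primary and secondary arrays can turn, as given further below. The 7 entries detected on all 4 arrays had mean intensities of 19.2 to 131 units, and the lowest detected probe on an array lay at 16.6 to 21.9 units. Their standard error over spots, which is technical error only, was 0.022 to 0.178 log2 (median 0.044). With 1 array per group, no value below has a biological error of its own.

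Among the miR-466 entries, miR-466a-3p stood at 18.5% on the primary array titled control, 21.6% on the primary array titled NFIA OE, 18.6% on the secondary array titled control and 15.9% on the secondary array titled NFIA OE. Its highest and its lowest value were both on arrays titled NFIA OE. miR-466f-3p had 4 probes, of which only 1 was detected on any array. By that probe alone, miR-466f-3p stood at 11.5%, 8.28%, 5.82% and 6.84% in the same array order. Its first value rests on 4 spots, of which 50% were well above background, and the others on 5 spots each. Both of its primary values lay above both secondary ones. miR-466i, which was not above background on the primary arrays, measured 9.36%, 7.53%, 5.42% and 5.28%, and its primary values have no rank against the secondary ones.

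Of the miR-467 entries, miR-467a* measured 14.3%, 17.0%, 17.9% and 15.7% in that array order, a span of 1.25-fold. miR-467f measured 16.4%, 11.8%, 10.01% and 10.4%, with the primary array titled control highest. Both rest on 1 of 2 probes, and the other probe of each was detected on no array. The other probe of miR-467f read 14.8, 14.4, 18.4 and 19.7 intensity units. miR-467b measured 8.86%, not above background, and then 14.5%, 12.3% and 11.0%. miR-467e measured 3.22%, not above background, and then 6.44%, 8.50% and 6.55%. miR-467a was above background on the secondary array titled control alone, at 6.01%, against 4.66%, 6.69% and 4.71% on the primary array titled control, the primary array titled NFIA OE and the secondary array titled NFIA OE. The primary array titled control was thus the high one for miR-467f. For miR-467b it was below the other 3 also at its bound of 10.7%, with no allowance for spot error. For miR-467e it has no rank, since the lowest detected probe on that array, at 10.6%, lay above every level of this entry.

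Among the miR-669 entries, miR-669f measured 21.6%, 28.8%, 28.4% and 24.1% in the array order used above. Its 2 high arrays were of different title and passage. miR-669a measured 12.3%, 14.3%, 11.0% and 10.4%, with both primary arrays above both secondary arrays. By 1 of its 2 probes, miR-669c measured 13.7%, 12.8%, 12.9% and 13.4%, a span of 1.07-fold. Its other probe, not above background on the primary array titled control, read 17.7, 18.3, 31.2 and 26.2 intensity units. miR-669b and miR-669d were above background on the secondary array titled control alone, at 5.64% and 5.53%. The other arrays read miR-669b at 5.29%, 5.77% and 4.13%, and miR-669d at 4.76%, 5.23% and 4.77%. The miR-297 entry, miR-297a*, measured 3.84% and 6.55% on the primary arrays, not above background, and 6.56% and 6.76% on the secondary arrays.

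**Figure D2:**
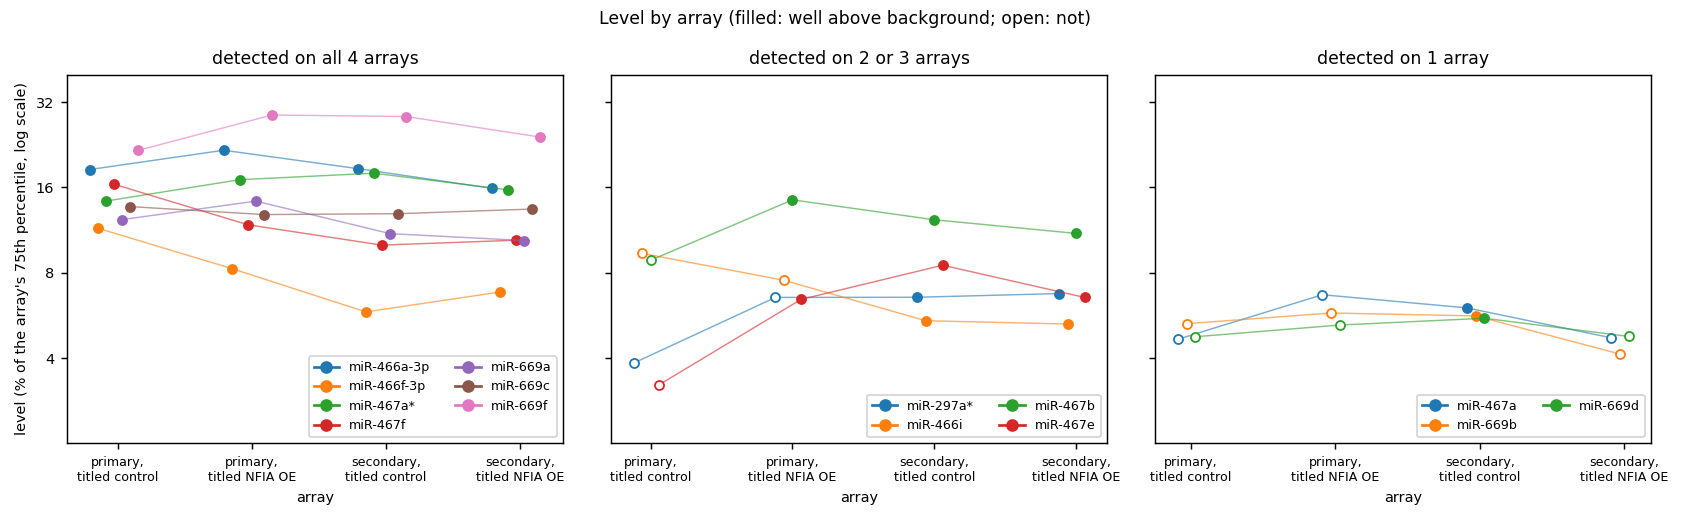
Level of the 14 detected entries on each array, as a percentage of that array's 75th percentile (log scale), in panels by the number of arrays on which the entry was detected. Filled points were well above background, open points were not, and lines only join the points of 1 entry. Among the filled points, miR-466f-3p, miR-467f and miR-669c lie highest on the primary array titled control, with miR-669c spanning only 1.07-fold.

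The title comparison asked whether these miRNAs differ with NFIA overexpression, and none of the 7 entries detected on all 4 arrays was called. An additive fit of title and passage was made with limma over the 153 mouse miRNAs detected on all 4 arrays, with a call at a Benjamini-Hochberg adjusted p under 0.05. It called 0 of the 7 entries, none also at an unadjusted p under 0.05, against 2.61% of all tested miRNAs. The arrays titled control and NFIA OE overlapped for all 7, while they did not for 17.6% of all tested miRNAs. The fit pools 1 residual SD of 0.29 log2 over all miRNAs, and the standard error (SE) of every difference equals it. With 1 array per group, this residual comes only from how title differences change between the passages. It is not a spread of replicates. The p-values and intervals of the fit reflect the spread among these 4 arrays alone.

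The log2 differences, titled NFIA OE minus titled control, were -0.00 for miR-466a-3p, -0.12 for miR-466f-3p, 0.03 for miR-467a*, -0.21 for miR-467f, 0.07 for miR-669a, -0.02 for miR-669c and 0.09 for miR-669f (SE 0.29 with 2 arrays per title, limma adjusted p of 0.920 to 0.994). Their median was -0.00, as was that of all 153 miRNAs. The largest in size was that of miR-467f, with a 95% interval of -0.79 to 0.37. The widest reach upward was that of miR-669f, with an interval of -0.50 to 0.67. No interval of the 7 reached a 2-fold difference in either direction, as far as the pooled SD holds for these entries. With 11 other processings, the authors' deposited values among them, 0 of the entries tested were called by title (limma adjusted p of at least 0.699).

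Within a passage, a title difference rests on 1 array against 1 and has no test. At passage 0, 0 of 7 entries differed by 2-fold or more, against 8.94% of the miRNAs detected on both arrays. Their differences ran from -0.48 (miR-467f) to 0.42 (miR-669f), with a median of 0.22 against -0.08 for all. At passage 1, 0 of 11 reached 2-fold, against 4.62%. These ran from -0.24 (miR-669f) to 0.23 (miR-466f-3p), with medians of -0.08 for the entries and for all. Each of the 7 entries changed the sign of its title difference between the passages. The share of all tested miRNAs that did so was not counted.

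Some entries were above background on 1 side only, so their fold is a lower bound by point values, with no allowance for spot error. The bright array's level was set against the higher of the dim probe's own level and the lowest detected probe of the dim array. At passage 0, miR-467b was at least 1.35-fold higher on the array titled NFIA OE (14.5% against a bound of 10.7%). At passage 1, the bounds of miR-467a, miR-669b and miR-669d were 1.16-fold, 1.09-fold and 1.07-fold, with the array titled control higher. Their standard errors over spots there were 0.049 to 0.103 log2 per array. Whether these bounds exceed 1 beyond spot error was not tested. The bound of miR-467e at passage 0 came to less than 1, so that it has no fold.

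**Figure D3:**
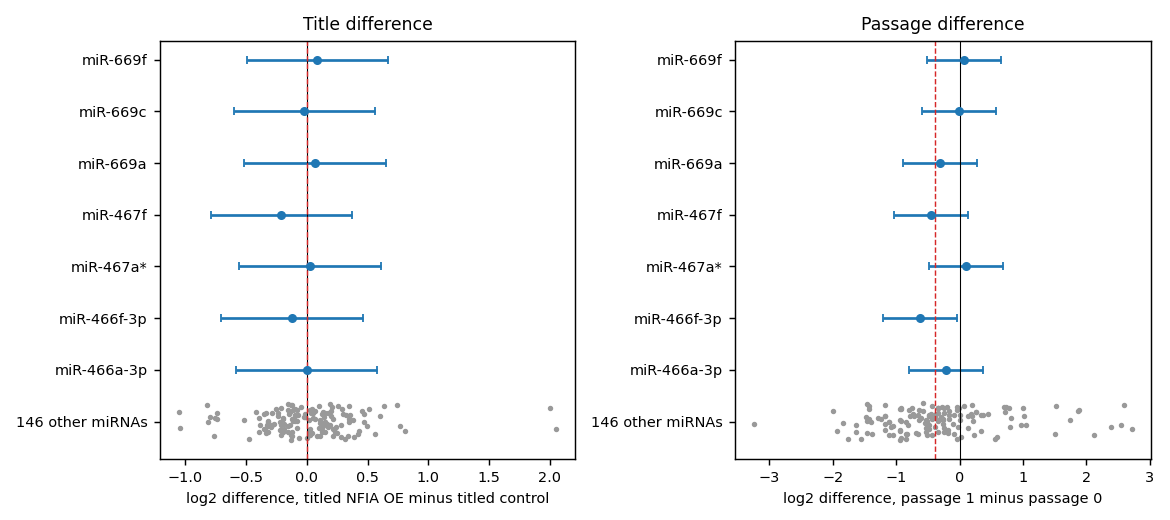
Log2 differences by title (left) and by passage (right) for the 7 entries detected on all 4 arrays (blue points, bars are 95% intervals from the limma fit) and for the 146 other miRNAs tested (grey points, spread vertically for visibility). The dashed red line is the median of all 153 miRNAs, -0.00 by title and -0.39 by passage; each blue interval includes 0 by title, and the one of miR-466f-3p does not by passage.

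The passage comparison asked what changes between primary and secondary neurospheres, where passage and day of culture cannot be told apart. Here too limma called 0 of the 7 entries, against 45.8% of all tested miRNAs (70 of 153, 20 higher and 50 lower at passage 1), and 1 passed at an unadjusted p under 0.05. That entry was miR-466f-3p, with a log2 difference of -0.63 at passage 1 (SE 0.29 with 2 arrays per passage, 95% interval -1.21 to -0.05, limma adjusted p = 0.0709). With the reported scaling, the arrays of the passages did not overlap for 3 of the 7 (miR-466f-3p, miR-467f and miR-669a), against 71.9% of all tested miRNAs.

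The other passage differences, passage 1 minus passage 0, were -0.22 for miR-466a-3p, 0.10 for miR-467a*, -0.45 for miR-467f, -0.31 for miR-669a, -0.01 for miR-669c and 0.07 for miR-669f (limma adjusted p of 0.213 to 0.974). The difference of miR-669c was -0.15 when detection on 1 array sufficed, which brings in its second probe. The median of the 7 was -0.22 against -0.39 for all 153 miRNAs, and 5 of the 7 lay above the latter. The interval of miR-467f ran from -1.03 to 0.13 and that of miR-466a-3p from -0.80 to 0.36, so that a change of about 2-fold downward lay at the edge of what these arrays allow for the first.

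The direction of these passage differences depended on how the arrays were scaled, and each of the 7 had either sign in at least 1 of 13 processings. All called miRNAs split into 20 higher and 50 lower as reported, 25 and 5 when the percentile was taken over all probes, 39 and 17 in the authors' deposited values, 20 and 1 without scaling and 15 and 23 with quantile normalization. Scaling moved the median of all miRNAs from -0.39 to 0.36 with the 75th percentile over all probes, to 0.27 in the authors' deposited values and to 0.56 with no scaling. With normexp background correction 3 of the 7 were called lower at passage 1, miR-466f-3p at -0.72, miR-467f at -0.59 and miR-669a at -0.54 (limma adjusted p = 0.00551, 0.0229 and 0.0362). In the authors' deposited values 2 were called higher, miR-467a* at 0.72 and miR-669f at 0.71 (limma adjusted p = 0.0439 and 0.0454). Over the 12 alternatives the limma adjusted p ran from 0.00551 to 0.842 for miR-466f-3p, 0.0229 to 0.965 for miR-467f, 0.0362 to 0.875 for miR-669a, 0.0439 to 0.830 for miR-467a* and 0.0454 to 0.869 for miR-669f. It stayed above 0.05 throughout for miR-466a-3p and miR-669c.

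The entries at either end were largely the same under each processing. miR-466f-3p had the lowest passage difference of the 7 in 12 of the 12 processings that tested it, and miR-467a* the highest in 12 of 13, the exception being normexp, where miR-669f was highest. The gap between the lowest and the highest entry was 0.47 to 0.73 log2 over the 13. A change of scaling moves all entries of an array together, so most of these processings could not have altered the order, and the gap has no test. Between the ends the order did change, as with quantile normalization miR-669c (0.61) came above miR-669f (0.49), and miR-669a (0.39) above miR-466a-3p (0.30). It also rested on the arrays titled control, where miR-466f-3p differed by -0.98 and miR-467a* by 0.33, with miR-669f higher at 0.40. In the arrays titled NFIA OE miR-466f-3p differed by -0.27, while miR-669a and miR-466a-3p lay lower at -0.46 and -0.45. There miR-467a* differed by -0.12, with miR-669c higher at 0.04. The high end of miR-467a* thus held in neither pair of arrays taken alone.

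**Figure D4:**
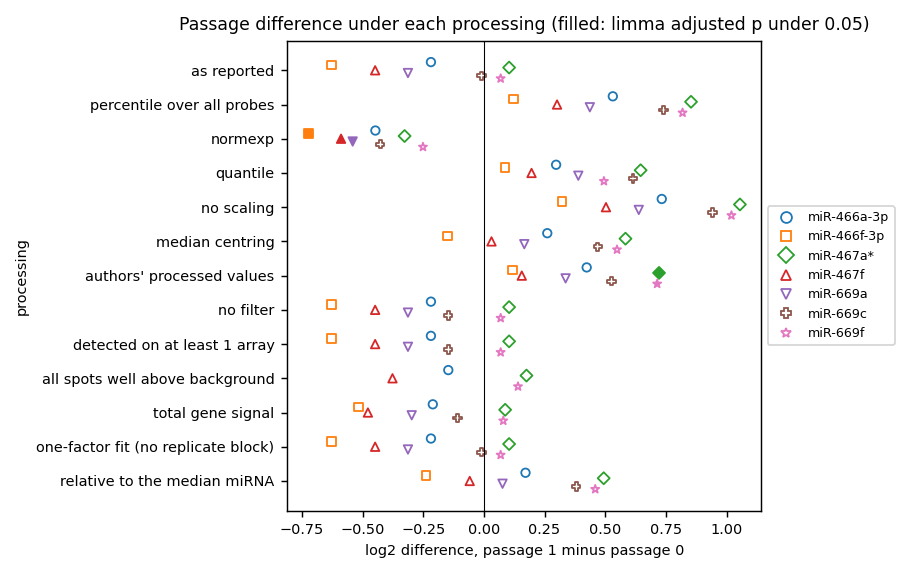
Log2 passage difference (horizontal, passage 1 minus passage 0) of the 7 entries under the reported processing and 12 alternatives (rows), each entry with its own symbol and filled where limma's adjusted p was under 0.05. The whole group moves from side to side with the scaling, and miR-466f-3p stays at the low end of the group where it was tested.

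Single pairs of arrays, which allow no test, gave no entry at 2-fold. Between the arrays titled control, 0 of 7 entries differed by 2-fold or more between the passages, against 35.6% of the miRNAs detected on both. Their median was -0.08 and that of all was -0.41. That count was 5 of 7 with no scaling and 2 of 7 with the percentile over all probes. Between the arrays titled NFIA OE, 0 of 9 did, against 22.3%, with medians of -0.26 and -0.39. By the bound, which has no allowance for spot error, miR-467b was at least 1.15-fold higher on the secondary than on the primary array titled control. For miR-297a* the bound was 1.03-fold, with the secondary above the primary array titled NFIA OE. Its standard errors over spots were 0.13 and 0.14 log2 on the primary and secondary arrays titled NFIA OE. For miR-466i the bound came to less than 1, so that no fold is given. Fewer cells that hold a miRNA and less of it per cell cannot be told apart in such pools of sorted cells. Of the 14 entries of the miR-290 to miR-295 cluster, the other large miRNA cluster known from mouse ESCs, 5 and 6 were detected in the primary cells titled control and NFIA OE, and 0 and 4 on the secondary ones. Summed over the detected ones alone of the 13 pluripotent markers, the level was 574% and 472% of the 75th percentile in the primary cells titled control and NFIA OE. It was 4.95% and 52.1% on the secondary ones. These sums cover 10, 11, 1 and 7 markers in the array order above. The 4.95% is that of 1 marker and equals the level of the lowest detected probe on that array. Of miR-294, miR-295, miR-302a to miR-302d and miR-367, only miR-302b was detected on the secondary array titled control. The part of these miRNAs' cells in any passage difference of the 39 entries was not tested.

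Before scaling, all 7 entries detected on every array were dimmest on the primary array titled control and brightest on the secondary array titled control, as the arrays' 75th percentiles were. They differed in how far they followed. miR-466f-3p went from 19.2 to 25.8 intensity units (1.34-fold) and miR-467f from 27.5 to 44.4 (1.61-fold). The other 5 spanned 2.38-fold (miR-669a), 2.50-fold (miR-669c), 2.67-fold (miR-466a-3p), 3.32-fold (miR-467a*) and 3.50-fold (miR-669f, from 37.4 to 131 units). Before scaling the flattest of the 7 are thus miR-467f, with no locus in Sfmbt2, and miR-466f-3p, with loci there and elsewhere. The values of miR-466f-3p lay close to the lowest detected probe of an array, 16.6 to 21.9 units. After scaling these 2 spanned the most, 1.64-fold for miR-467f and 1.975-fold for miR-466f-3p, and miR-669c the least, 1.07-fold. The values of miR-467f, miR-466f-3p, miR-669c and miR-467a* rest on 1 probe each. That of miR-669c leaves out its second probe, which was not above background on the primary array titled control. The grouping by locus was seen after the values were known and is given as a description. The 7 entries detected on fewer arrays have no such fold, since none of them was well above background on the primary array titled control.

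The repeat letters were then sought in all mature sequences at hand. Of 1679 mature mouse miRNAs, 11 held UGUGUGU (0.655%) and 5 held ACACACA (0.298%), which are reverse complements of each other, so that searching both covers both strands. A sequence counted as 1 match however many overlapping copies it held. Among the 162 array names with a RefSeq sequence of exactly that name, miR-467f and miR-467g held the second, as did miR-466i-3p, and miR-466j, miR-466k and 2 miRNAs of other numbers held the first. Those 2 are shown for comparison, again with the seed in capitals.
miR-1187: uAUGUGUGuguguauguguguaa
miR-574-5p: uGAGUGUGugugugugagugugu
They lie at chr5:82798964-82798986 on the minus strand and at chr5:64970328-64970350 on the plus strand, away from Sfmbt2, and were detected on all 4 arrays. miR-1187 measured 21.4%, 11.4%, 8.87% and 9.65% of the 75th percentile in the array order above, and miR-574-5p 32.7%, 18.9%, 12.9% and 14.9%. Like miR-467f and miR-466f-3p, both were highest on the primary array titled control and lowest on the secondary array titled control. How many of all tested miRNAs had this array order was not counted, while the passages did not overlap for 71.9% of them. No sequence of miR-466f-3p was matched, and a link of the array order with the repeats was not tested. Both were called lower at passage 1, with log2 differences of -0.75 and -0.84 (SE 0.29, limma adjusted p = 0.0278 and 0.0131), and over 12 other processings they ran from -0.75 to 0.20 and from -0.84 to 0.11, called lower in 2 and in 4 of them. Of the 4 entries among the 39 that held either run by exact name, miR-467f was detected on all 4 arrays and miR-466j, miR-466k and miR-467g on none.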

How the data were processed

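The authors' deposited scanner files hold spot intensity from Cy3-labelled total RNA on a linear scale, background-subtracted and unscaled across arrays. Per the file headers, they were made with Feature Extraction 10.5.1.1. In the authors' deposited series table, each value was the total gene signal of the scanner file over a constant of the array (20.3, 34.1, 33.7 and 31.0 in the array order of the text), so it is a linear intensity with no centring, with medians of 0.882, 0.830, 0.700 and 0.816. How those constants were set is not stated here.

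Outside the controls an array held 13000 spots for 1857 probes. Outlier spots (265 to 300 an array) were left out and the rest averaged per probe. Values were divided by the array's 75th percentile, taken over probes that all 4 arrays detected, and put on the log2 scale. An entry's value is the mean over its probes detected on all 4 arrays, or, for entries detected on fewer, over its probes detected on any. Tests used limma 3.58.1 in R 4.3.3 (title and passage, 153 miRNAs, 1 residual degree of freedom each, an infinite prior), checked on simulated data. All arrays lay on 1 slide, where position cannot be told apart from group. Processing alternatives are in the closing section, and the number of arrays limits precision. Every member detected on any array was named, as were other array miRNAs with a UGUGUGU or ACACACA repeat among the 162 array names that a RefSeq mature sequence matched exactly. The members, lists and rules were chosen with earlier results of these data known. The marker lists for muscle, endothelial and mesenchymal cells gave 1, 2, 1 and 2 detected of 9, and those for epithelial and endodermal cells 1, 0, 0 and 0 of 9.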

Additional observations from a re-analysis of the deposited data

Results flagged for a closer look

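All 7 entries detected on every array had title differences of opposite sign at passages 0 and 1. This was not tested, since each passage has 1 array per title. The share of all tested miRNAs with such a turn was not counted, so the 7 cannot be set against it. From passage 0 to passage 1 the log2 difference of miR-466a-3p went from 0.23 to -0.23, a shift of -0.46, and that of miR-467a* from 0.25 to -0.19, a shift of -0.45. For miR-669a it went from 0.22 to -0.08, a shift of -0.30, and for miR-669f from 0.42 to -0.24, a shift of -0.66. The opposite turn was seen in miR-466f-3p, from -0.47 to 0.23 (a shift of 0.71), and in miR-467f, from -0.48 to 0.06 (0.53). It was also seen in miR-669c, from -0.09 to 0.03 (0.13), where the standard error over spots was 0.05 to 0.10 log2 per array.

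By the same arithmetic, 4 entries had passage differences of opposite sign in the arrays titled control and those titled NFIA OE. These were also untested, and the share of all tested miRNAs was again not counted. They were miR-466a-3p (0.01 and -0.45, a shift of -0.46), miR-467a* (0.33 and -0.12, -0.45), miR-669c (-0.08 and 0.04, 0.12) and miR-669f (0.40 and -0.26, -0.66). The shift of an entry is 1 value from 4 arrays, whether read by title or by passage. It is also what the additive fit takes as the residual of that entry.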

How the results depend on the processing

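By title, 57 of 74 values of the 7 entries under 11 alternatives kept their sign and none was called. The 17 that turned were small. They were -0.082, -0.042 and -0.023 for miR-467a*, miR-669a and miR-669f when the percentile was over all probes, -0.083, -0.079 and -0.060 with normexp, and -0.099, -0.069 and -0.030 in the authors' deposited values. miR-467a* and miR-669a came to -0.045 and -0.0050 with median centring and to -0.040 and -0.011 with total gene signal. With no scaling miR-466a-3p, miR-466f-3p and miR-669c came to 0.19, 0.068 and 0.17, and with all spots required miR-466a-3p to 0.057.

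By passage, 52 of 81 values under 12 alternatives kept their sign, 29 turned and 5 were called. With normexp 3 entries were called lower, and in the authors' deposited values 2 were called higher, against 0 in the other 10 alternatives. In the order miR-466a-3p, miR-466f-3p, miR-467f, miR-669a, miR-669c, the turned values were 0.53, 0.12, 0.30, 0.44 and 0.74 when the percentile was over all probes, 0.30, 0.087, 0.20, 0.39 and 0.61 after quantile normalization, 0.73, 0.32, 0.50, 0.64 and 0.94 with no scaling, and 0.42, 0.12, 0.16, 0.34 and 0.53 in the authors' deposited values. With median centring miR-466a-3p, miR-467f, miR-669a and miR-669c came to 0.26, 0.031, 0.17 and 0.47, and relative to the median miRNA miR-466a-3p, miR-669a and miR-669c to 0.17, 0.077 and 0.38. With normexp miR-467a* and miR-669f came to -0.33 and -0.25. With the percentile over all probes, no scaling, median centring and relative to the median miRNA, all miRNAs of an array shift together. The turns under these follow from that construction. Quantile normalization and the authors' deposited values are not such plain shifts. The cause of the turns under those and under normexp was not tested.

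Counts at 2-fold moved only without the reported scaling or background. By title at passage 0, 1 entry passed with no scaling. Between the arrays titled control, 5 passed with no scaling, 2 with the percentile over all probes, and 1 each with normexp and in the authors' deposited values. With all spots required, 4 and 9 entries were detected on the primary and secondary arrays titled control, and by the scanner software's gene flag 16 and 17 on those titled NFIA OE. The passage acts as a block in the reported fit, and the labels carry no replicate number that pairs arrays beyond it. Without that block 0 entries were called by title and 0 by passage. Leaving out 1 array leaves no residual, so that the estimate becomes the remaining pair's difference, given in the report with no test. All miRNAs called by passage numbered 70 as reported, 30 when the percentile was over all probes, 38 after quantile normalization, 21 with no scaling, 0 with median centring, 87 with normexp and 108 when detection on 1 array sufficed. By title they numbered 4 as reported and 0 to 5 otherwise. Entries near background, with signals close to the lowest detected probe, limit what these arrays can resolve.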
